A study of Mus musculus with 16 samples.

Results

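The snoRNAs hosted by Gas5 were followed through 8 cell populations that had been sorted out of wild-type mouse bone marrow. Gas5 is a non-coding gene on mouse chromosome 1 (GRCm38, chr1:161034422-161038539, plus strand) for which GENCODE M21 annotates 25 transcripts. The members were all counted intervals that lay inside this gene on the same strand and carried the GENCODE gene type snoRNA. The rule found 10 of the 1885 intervals in the files and 10 of the 406 snoRNA intervals: Gm26224, Gm22489, Gm22357, Gm23212, Snord78, Mir5117, a long and a short interval of Snord80, Snord47 and Gm25789. The short Snord80 interval lies wholly inside the long one, so the 10 intervals stand for 9 snoRNAs. No interval of another type or strand was counted inside Gas5.

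The populations were 4 progenitors (CLP, CMP, GMP and MEP, the usual abbreviations of the common lymphoid, common myeloid, granulocyte-macrophage and megakaryocyte-erythroid progenitor) and 4 mature fractions labelled B, T, Myloid (written Myeloid below) and Erythroid. Each had 2 libraries of small RNA cut from a gel at snoRNA length, 16 in all. Cells were stained with lineage, Sca-1, c-Kit and other surface antibodies and sorted by flow cytometry; the labels give no gate for a single population and no age, sex or strain of the mice. Nothing in the labels ties a library to a mouse, so a p-value here tests against library-to-library spread only, and that spread may be technical.

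C/D box snoRNAs are short nuclear RNAs that carry a C box near the 5′ end and a D box near the 3′ end. As part of a protein complex with the methyltransferase fibrillarin, they pair with a target RNA, mostly ribosomal RNA, and place a 2′-O-methyl group on it. In mammals most are cut out of the introns of host genes. Gas5 (growth arrest specific 5) is a host whose spliced RNA has no conserved protein product and is turned over during translation, and which is known for building up in growth-arrested cells, lymphocytes among them. By homology to human snoRNAs, as background that was not checked against a file, Gm26224 corresponds to SNORD74, Gm22489 to SNORD75, Gm22357 to SNORD76, Gm23212 to SNORD44, Mir5117 to SNORD79 and Gm25789 to SNORD81. Mir5117 has a microRNA name but is typed as a snoRNA by GENCODE.

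The sequences that the results below turn on are printed 5′ to 3′ from the GENCODE M21 transcripts (GRCm38, chromosome 1, plus strand), with the C box and the D box in capitals. Gm26224 is the most abundant member, Snord78 the scarcest and the one that varied most, Gm22489 and Gm22357 moved in opposite directions, Gm23212 is the one with a long match to 18S rRNA, and the 2 Snord80 intervals differ only at their ends.
Gm26224 (chr1:161035394-161035473): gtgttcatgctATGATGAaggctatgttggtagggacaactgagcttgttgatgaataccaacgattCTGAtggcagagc
Gm22489 (chr1:161035850-161035911): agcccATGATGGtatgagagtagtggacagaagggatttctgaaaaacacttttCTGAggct
Gm22357 (chr1:161036057-161036139): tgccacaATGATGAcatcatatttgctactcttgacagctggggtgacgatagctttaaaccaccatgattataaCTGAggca
Gm23212 (chr1:161036682-161036741): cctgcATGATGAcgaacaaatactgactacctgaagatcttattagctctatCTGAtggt
Snord78 (chr1:161036984-161037049): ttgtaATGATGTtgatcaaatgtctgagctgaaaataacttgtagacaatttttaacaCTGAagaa
Snord80 long interval (chr1:161037601-161037681): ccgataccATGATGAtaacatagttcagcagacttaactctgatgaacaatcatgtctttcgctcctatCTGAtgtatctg
Snord80 short interval (chr1:161037604-161037680): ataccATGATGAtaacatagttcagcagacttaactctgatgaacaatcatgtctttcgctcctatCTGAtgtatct

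All 10 intervals held a C box, searched as ATGATGA or GTGATGA with at most 1 mismatch near the 5′ end, and a D box, searched as CTGA near the 3′ end, both on the transcribed strand. Of the 406 snoRNA intervals in the files, 171 (42.1%) held both. Snord78 and Gm22489 were the members with 1 mismatch in the C box. Gm23212 carried an 11-base run, tattagctcta, that ends 1 base before its D box and is complementary to tagagctaata, which starts at position 163 of an 1849-base copy of 18S rRNA in the annotation. The fifth base before the D box, the place where a C/D snoRNA is known to direct methylation, lay opposite position 166 of that copy. A run of at least 10 bases of this kind was found in 38 of the 406 snoRNA intervals (9.36%) and in no other member. No 28S rRNA was at hand, so matches to it were not analysed here.

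Each of the 9 snoRNAs lay in a different intron. In the shortest annotated intron that holds it, the snoRNA ended 65 to 78 bases before the next exon in 7 of the 9. Gm26224 ended 278 bases and Snord80 313 bases before it. Outside Gas5 no similar interval was found for any member except Gm25789, which shared 88.3% of its aligned bases with Gm25802. That copy held 26082 counts over all 16 libraries, fewer than Gm25789 had in any single library. Reads that fit both could have been split between them, and the level of Gm25789 is uncertain by that amount.

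**Figure D1:**
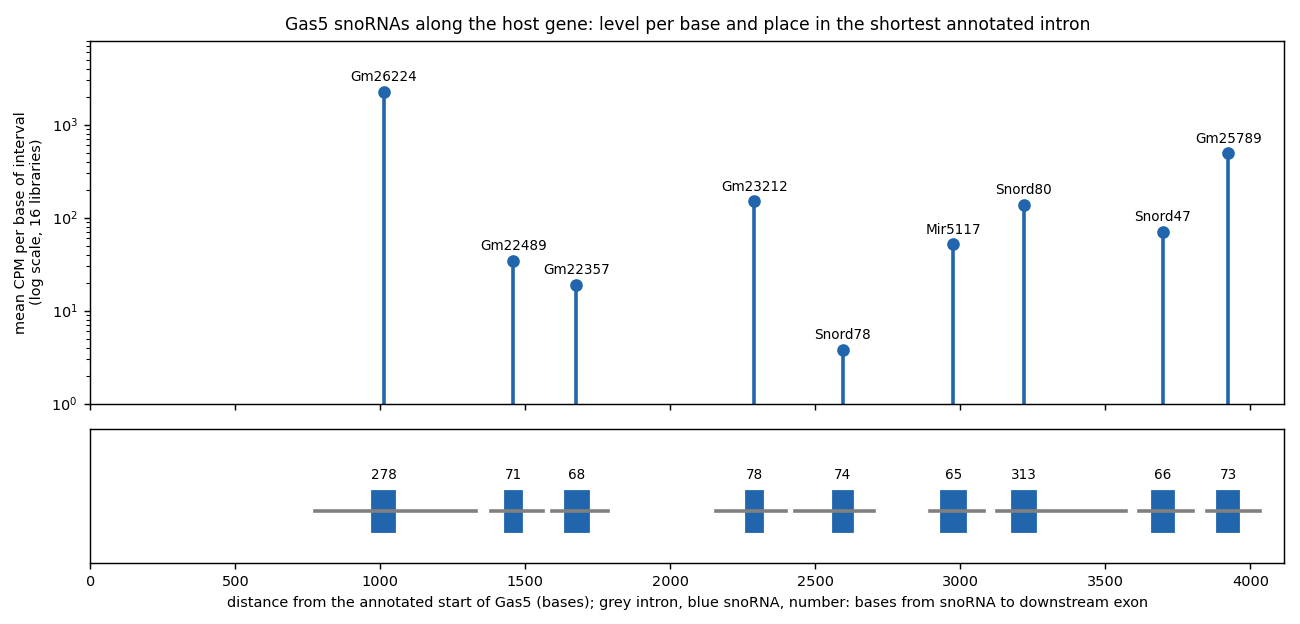
Top: level per base of each Gas5 snoRNA (mean over 16 libraries of CPM, counts per 1000000, divided by interval length, log scale) against distance from the annotated start of Gas5. Bottom: the shortest annotated intron (grey) that holds each snoRNA (blue), with the number of bases to the downstream exon; 7 of 9 values lie between 65 and 78, while Gm26224 (278) and Snord80 (313) stand apart.

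Total counts per library ran from 8197458 (CMP library 1) to 41799906 (CLP library 2), and the smallest count of any member in any library was 762. Between the 2 libraries of a population the SD of the log2 ratio over tested features was 0.118 to 0.199 in 5 populations but 0.549 in GMP, 0.636 in MEP and 0.605 in Erythroid. The largest log2 ratio of a member between the libraries of a population was 0.36, for Snord78 in T, above the SD of 0.199 over features there. In each of the other 7 populations it was below that SD, at 0.07 to 0.25. Among the microRNAs used to check the labels, Mir150 was highest in T (214 CPM, counts per 1000000 counts of the library), Mir223 in Myeloid (1050) and Mir451a in MEP (157), but Mir451a reached 140 in CLP, so this erythroid marker did not set the erythroid fractions apart from CLP. Mir144, also erythroid, was higher in CLP (2.77) than in Erythroid (2.56). Of the lymphocyte markers, Mir150 was next highest in B (67.3), but Mir342 was lower in B (13.3) than in Myeloid (20.7). The T cell markers Mir181a-1 and Mir181a-2 were highest in T (83.5 and 76.3), near Myeloid (72.5 and 67). Mir142, for all blood cells, ran from 19.5 in CMP to 183 in Myeloid. The stem and progenitor markers Mir126a, Mir125b-1 and Mir99a were highest in CMP, at 21.1, 2.19 and 19 CPM. None set all of CLP, GMP and MEP apart from the mature fractions. Mir126a was at 7.75 in CLP, 9.35 in GMP and 9.69 in MEP against 11 in Myeloid. Mir125b-1 was lowest in CLP (0.192). Mir99a was at 4.77 in CLP, 5.56 in GMP and 4.04 in MEP against 5.28 in Myeloid. The liver marker Mir122 was at 0 in 7 populations and at 0.0495 CPM in CMP, and the brain marker Mir124a-1 was not matched to any counted interval. The muscle markers Mir133a-1 and Mir206 reached at most 0.289 CPM (B) and 0.212 CPM (Myeloid). These sums come from bulk RNA, where more cells of a kind and more RNA per cell cannot be told apart.

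Gas5 gave a large part of every library: its snoRNAs held between 20.65% (T library 2) and 28.93% (MEP library 1) of all counts. Most of that was 1 snoRNA. Gm26224 alone made up 68.1% ± 0.281 (SD, n = 2) of the Gas5 counts in CLP, the lowest population, and 76.5% ± 0.453 (SD, n = 2) in T, the highest. Gm25789 came next with 12.6% ± 0.592 (SD, n = 2) in B to 17.7% ± 0.288 (SD, n = 2) in CLP. At the other end, Snord78 held 0.0321% ± 0.00451 (SD, n = 2) of the Gas5 counts in T and 0.126% ± 0.0076 (SD, n = 2) in CLP.

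Divided by interval length, the mean level over 16 libraries was 2253 CPM per base for Gm26224 and 3.79 for Snord78. That is a 595-fold range of read counts per base within 1 host gene. Whether snoRNAs of different length and sequence were captured equally well was not tested. These values therefore order reads and may not order amounts of RNA. Gm25789 was 4.59-fold below Gm26224. Gm23212 was 15.1-fold and Snord80, with both intervals summed, 16.3-fold below it, and these 2 exchanged ranks between libraries. Snord47 lay 31.8-fold, Mir5117 43.6-fold, Gm22489 65.1-fold and Gm22357 118-fold below. Gm26224, Gm25789, Snord47, Gm22357 and Snord78 kept the same rank in 16 of 16 libraries. Mir5117 stood above Gm22489 in 12 of 16.

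The ratio of Gm26224 to Snord78 per base separated the lymphocytes from the rest. It was 874 and 968 in the B libraries and 2200 and 1780 in the T libraries. In the other 12 libraries it lay between 427 and 644. This ratio is taken within a library and does not depend on how libraries are scaled.

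**Figure D2:**
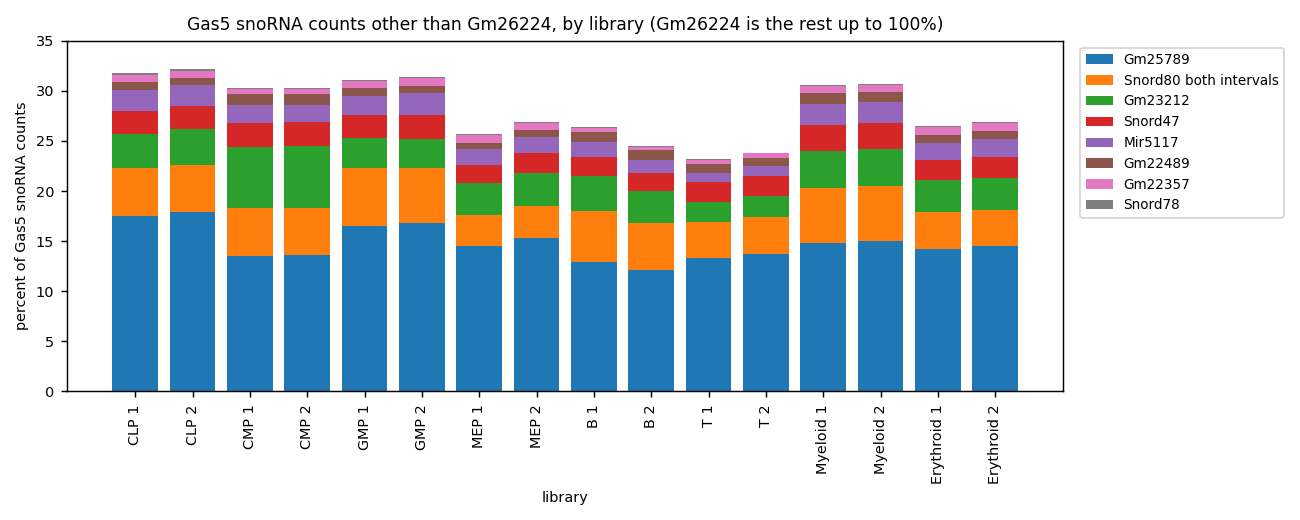
Percent of all Gas5 snoRNA counts held by each snoRNA other than Gm26224, stacked, in each of the 16 libraries; the part up to 100% not drawn is Gm26224. The stacks are lowest in MEP, B, T and Erythroid, where Gm26224 took over 73% of the counts, and Gm25789 is the largest block in all libraries.

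To compare populations, counts were fitted with edgeR's quasi-likelihood model over all 16 libraries and 749 features. Levels are given below as CPM after scaling by trimmed mean of M values (TMM), a method that sets most features equal between libraries. Of the members, 9 of 10 differed among the 8 populations at an adjusted p under 0.05, against 61.1% of all tested features and 96.7% of the 122 features at least as abundant as Snord78. The members' share was thus near that of this set. Below, features as abundant as the members are these 122, which start at the level of Snord78, the lowest member, and include the members. They are not matched to each member's level. Snord47 was the member that did not pass (adjusted p = 0.0981, edgeR), and its population means spanned 5102 to 5732, a 1.12-fold range. This flatness depended on TMM. Snord47 held 0.402% of all counts in T and 0.631% in CLP, and its share of Gas5 counts spanned 1.39-fold. Under library totals Snord47 passed too. Counts of members called under other settings, in what follows, are mostly given without the share over all features under the same setting.

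**Figure D3:**
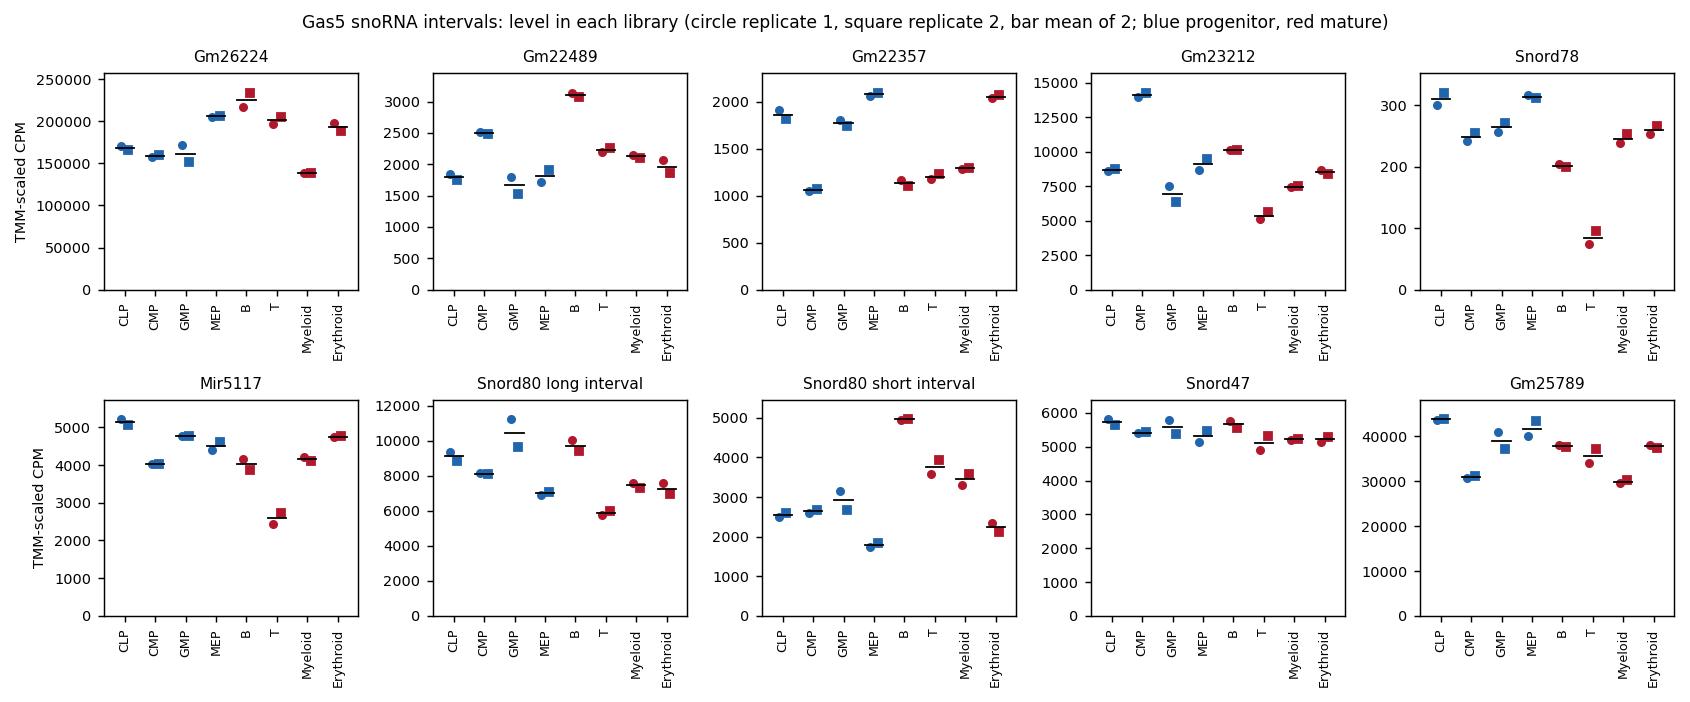
TMM-scaled CPM of each Gas5 interval (1 panel each, axis from 0) in 8 populations; circles are replicate 1, squares replicate 2, bars the mean of 2, blue progenitor and red mature populations. Snord78 and Mir5117 drop in T, Gm23212 peaks in CMP, Gm22489 and the short Snord80 interval peak in B, and Snord47 is nearly level.

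Snord78 had the widest range of the members, 3.72-fold between its highest and lowest population means. Libraries are named below by population and number. Snord78 stood at 300 and 321 TMM-scaled CPM in the CLP libraries, 243 and 256 in CMP, 257 and 272 in GMP, and 317 and 312 in MEP. In the mature fractions it stood at 204 and 199 in B, 73.8 and 95.1 in T, 238 and 253 in Myeloid, and 253 and 266 in Erythroid. The T libraries were lowest and the B libraries next lowest, with no overlap with any other library. Between 6.94% and 47.8% of all features differed between the 2 populations of a pair, over the 28 pairs. From MEP down to B no neighbours in the order differed (adjusted p from 0.0656 to 0.966, edgeR), while B and T did (adjusted p = 1.11e-05).

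Mir5117 followed a like order. Its means were 5141 ± 105 (SD, n = 2) in CLP and 2584 ± 207 (SD, n = 2) in T, a 1.99-fold range, and the step from B (4019 ± 196, SD, n = 2) down to T was the one between neighbours that passed the test (adjusted p = 1.26e-05, edgeR). Across the 8 population means of log2 levels, Pearson's r between Snord78 and Mir5117 was 0.957. All such values rest on the same 16 libraries and their scaling and are given as a description.

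Gm23212, with the 11-base match to 18S rRNA shown above, was highest in CMP, at 13950 and 14250 in the 2 libraries, above every other library. B followed at 10110 and 10120 (CMP against B, adjusted p = 0.000491, edgeR). T was lowest at 5107 and 5595, below GMP at 7514 and 6312 (adjusted p = 0.00158). The populations between B and GMP did not differ from their neighbours in the order (adjusted p from 0.0844 to 0.924, edgeR). As a percent of all counts CMP was again highest (1.63%) and T lowest (0.421%), but CLP (0.951%) stood above B (0.834%).

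Gm22357 and Gm22489 lie next to each other in Gas5, in introns either side of 1 exon, and had opposed orders (r = -0.819 over 8 population means). In the order of its levels, Gm22357 had 1 large step between populations. MEP (2076 ± 23.7, SD, n = 2), Erythroid (2052 ± 26.9), CLP (1859 ± 65.7) and GMP (1775 ± 44.3) were high, and Myeloid (1289 ± 8.01), T (1202 ± 41.7), B (1133 ± 47.8) and CMP (1063 ± 16) were low. The step from GMP to Myeloid was the one between neighbours that passed (adjusted p = 8.5e-05, edgeR). Populations on the same side of it also differed, such as GMP from MEP (adjusted p = 0.0185) and Myeloid from CMP (adjusted p = 0.00154). The high populations were also the ones least apart over all features. Between any 2 of them 6.94% to 12.8% of features differed, and in every other pair at least 19.0%. Gm22489 was highest in B, at 3140 and 3068, above CMP at 2516 and 2488 (adjusted p = 0.0122, edgeR). It was lowest in GMP, at 1798 and 1528, where the libraries overlapped those of CLP and MEP.

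The abundant members moved less. Gm26224 had means from 225200 ± 12300 (SD, n = 2) in B to 139000 ± 199 (SD, n = 2) in Myeloid, a 1.62-fold range. It split into B, MEP, T and Erythroid above CLP, GMP and CMP (Erythroid against CLP, adjusted p = 0.0332, edgeR), with Myeloid below CMP (adjusted p = 0.0171). This order depended on the scaling. Of all counts Gm26224 held 21.06% in MEP, 18.95% in Erythroid, 18.56% in B, 18.51% in CLP and 15.84% in T. Gm25789 ran from 43750 ± 70.2 (SD, n = 2) in CLP to 29930 ± 345 (SD, n = 2) in Myeloid, a 1.46-fold range. The step that passed was from T down to CMP (adjusted p = 0.0116, edgeR). As a percent of all counts, Gm25789 was instead lower in T (2.80%) than in CMP (3.57%).

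Between the stages, 6 of 10 intervals were higher in the mean of the 4 progenitors than in the mean of the 4 mature fractions and 3 were lower. Over all tested features 26.7% were higher and 23.1% lower, 49.8% in either direction, and 77.0% of the features as abundant as the members passed in either direction. Snord78 rose most, by 0.64 ± 0.053 on the log2 scale (SE) or 1.56-fold (adjusted p = 1.93e-06, edgeR). That fold averages the populations on the log scale. The plain means of its population levels were 284.6 in progenitors and 197.8 in mature fractions. Gm23212 was 0.29 higher, Mir5117 0.28, Gm22357 0.25, the long Snord80 interval 0.20 and Gm25789 0.13. The short Snord80 interval was lower by -0.51 ± 0.0405 (adjusted p = 1.4e-06, edgeR), Gm22489 by -0.27 and Gm26224 by -0.11. Snord47 did not pass (0.06, adjusted p = 0.0976). For no member were all progenitor libraries on one side of all mature libraries.

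The size of these stage differences rested partly on T and CMP. Without T in the mature mean, the Snord78 difference was 0.27 ± 0.0573 (SE; adjusted p = 0.00298, edgeR). In that fit 5 intervals were higher and 2 lower, against 40.3% of all features in either direction. Mir5117 dropped from 0.28 to 0.10 (adjusted p = 0.027) and Gm23212 from 0.29 to 0.12 (adjusted p = 0.0405); Gm26224 (-0.08, adjusted p = 0.0546) and the long Snord80 interval (0.08, adjusted p = 0.0961) no longer passed. Without CMP in the progenitor mean, Gm23212 dropped to 0.09 (adjusted p = 0.0815), Gm26224 to -0.07 (adjusted p = 0.0567), and Gm22357 grew to 0.46 (adjusted p = 1.38e-07). Without both, Gm23212 changed sign to -0.08 (adjusted p = 0.139). When the 2 libraries of a population were added up, so that 4 sums stood against 4, no member passed (0 of 10 by edgeR, 1 at an unadjusted p under 0.05, the short Snord80 interval), and 21 of 737 features did.

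The direction for Gm26224 also depended on the scaling. Under TMM it was -0.11 (adjusted p = 0.00478, edgeR) and under library totals 0.12 (adjusted p = 0.000105). The TMM factors were 0.765 to 0.844 in the B and T libraries and 0.965 to 1.17 in the others, and library totals moved the median of all features by 0.23. Gm22489 shrank from -0.27 to -0.04 under library totals and lost its call (adjusted p = 0.284), and the short Snord80 interval from -0.51 to -0.28 (adjusted p = 8.84e-06). The 5 members Gm22357 (0.48), Gm23212 (0.52), Mir5117 (0.51), the long Snord80 interval (0.43) and Gm25789 (0.36) had larger differences there. Gm25789 lost its call under DESeq2 size factors in edgeR (0.10, adjusted p = 0.159). DESeq2 itself gave 4 higher and 2 lower, without Gm26224 (adjusted p = 0.0602), the long Snord80 interval (adjusted p = 0.0593) and Gm25789 (adjusted p = 0.221). Leaving out 1 library ended the stage call of Gm26224 for 7 of 16 libraries (CLP 2, CMP 1, MEP 2, B 2, T 1, Myeloid 1 and Erythroid 1; -0.20 to -0.07 over all 16, adjusted p up to 0.181, edgeR). It ended that of Gm25789 without CLP 1, B 1 or T 2 (down to 0.04, adjusted p = 0.426) and that of the long Snord80 interval without CLP 1 or T 2 (down to 0.10, adjusted p = 0.193). The other 6 calls held in all 16.

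**Figure D4:**
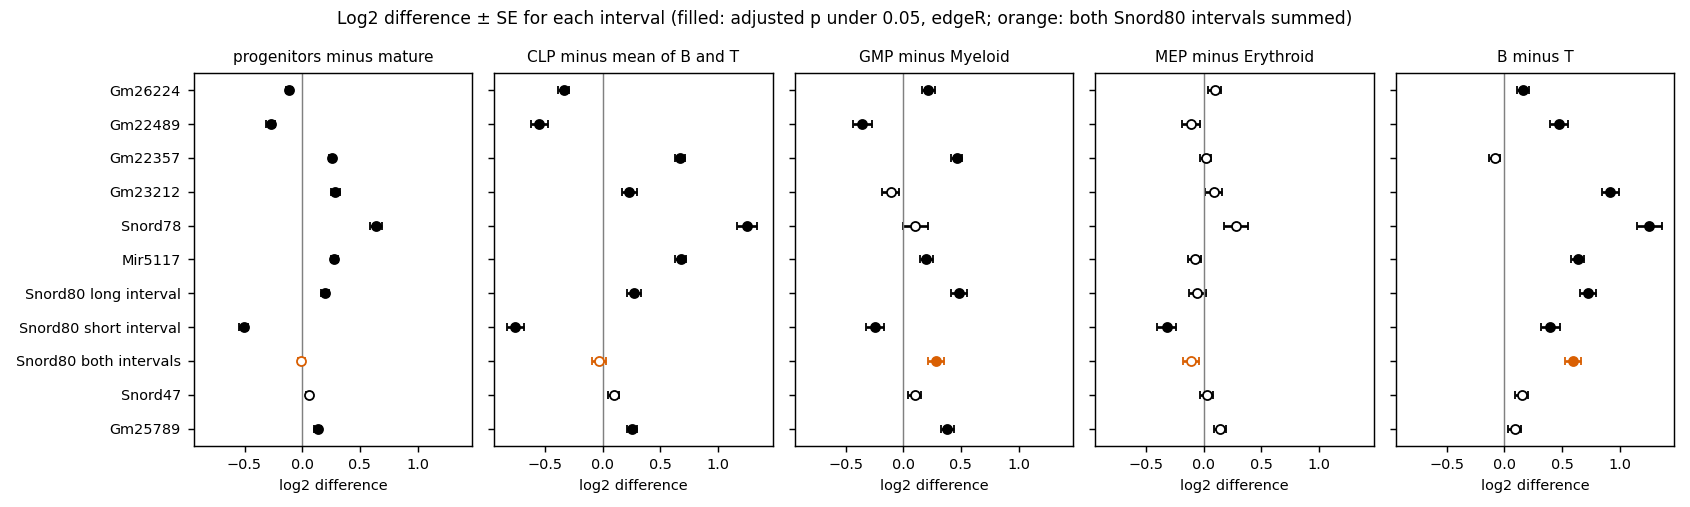
Log2 difference with its standard error for each interval in 5 comparisons; filled points passed an adjusted p of 0.05 (edgeR), open points did not, and orange points are both Snord80 intervals summed. Snord78 is farthest to the right in progenitors against mature fractions, CLP against B and T, and B against T; the short Snord80 interval lies left of 0 in 4 panels, while the sum lies at 0 in the first 2.

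In the lymphoid branch, CLP was compared with the mean of B and T. These libraries are also part of the comparison between the stages. Of 10 intervals, 6 were higher in CLP and 3 lower (25.2% and 18.0% of all features; 43.3% in either direction, and 73.8% of features as abundant as the members). Snord78 was higher by 1.25 ± 0.0884 (SE) or 2.38-fold (adjusted p = 6.83e-07, edgeR), Mir5117 by 0.67 ± 0.047 (adjusted p = 6.14e-07) and Gm22357 by 0.67 ± 0.0426 (adjusted p = 3.7e-07). For these 3 both CLP libraries lay above all 4 B and T libraries. Against B alone the differences were 0.62 for Snord78, 0.36 for Mir5117 and 0.71 for Gm22357, and against T alone 1.88, 0.99 and 0.63. The short Snord80 interval was lower by -0.76 ± 0.0723 (adjusted p = 5.94e-06, edgeR) and Gm22489 by -0.55 ± 0.0714 (adjusted p = 7.14e-05), with both CLP libraries below all 4. Gm26224 was lower by -0.34 under TMM, and 0.11 higher under library totals (adjusted p = 0.00845), where the median of all features moved by 0.45. Under library totals Gm22489 was at -0.10 and lost its call (adjusted p = 0.159, edgeR), and the short Snord80 interval was at -0.31 (adjusted p = 0.000342).

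The smaller rises in CLP were less secure. Gm23212 (0.23), the long Snord80 interval (0.27) and Gm25789 (0.25) lost their calls under DESeq2 (adjusted p = 0.224, 0.133 and 0.105), which left 3 intervals higher. Leaving out CLP 1 or T 2 also left 3 intervals higher, since the same members lost their calls, Gm23212 also without CLP 2 or B 1. Gm26224 lost its call without CLP 2 (adjusted p = 0.054, edgeR). Under TMM, Snord78, Mir5117, Gm22357, Gm22489 and the short Snord80 interval passed without any 1 of the 16 libraries.

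In the granulocyte branch, GMP against Myeloid, 5 intervals were higher in GMP and 2 lower (16.3% and 15.5% of all features; 31.8% in either direction, and 49.2% of features as abundant as the members). The long Snord80 interval was higher by 0.48 ± 0.0705 (SE; adjusted p = 0.00054, edgeR), Gm22357 by 0.46 ± 0.0504 (adjusted p = 8.5e-05) and Gm25789 by 0.38 ± 0.0547 (adjusted p = 0.000468). Gm26224 (0.22) and Mir5117 (0.20) were higher and Gm22489 (-0.36) and the short Snord80 interval (-0.24) lower. Snord78, which fell in the lymphoid branch, differed by 0.11 ± 0.105 (adjusted p = 0.49, edgeR).

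Only the first 3 of these calls held in all 16 fits that left out a library. Without 1 library, 3 intervals were higher for CLP 1, GMP 1, B 1, T 2 or Myeloid 1 left out, and 3 also under DESeq2. The number lower was 0 without CLP 2, CMP 1, GMP 2, MEP 2, B 2, T 1, Myeloid 1 or Erythroid 1 and under DESeq2, and 1 without CLP 1, CMP 2, B 1, T 2 or Myeloid 2. Mir5117 lost its call under library totals (0.10, adjusted p = 0.19, edgeR), and Mir5117 (0.10, adjusted p = 0.368) and Gm26224 (0.12, adjusted p = 0.234) did so under TMM over snoRNAs alone. The 2 GMP libraries differed more from each other than those of most populations, with microRNA shares of 1.4% and 2.33% of their counts; the part of this in the result was not tested.

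In the erythroid branch, MEP against Erythroid, no interval was higher in MEP and 1, the short Snord80 interval, was lower (5.47% and 4.41% of all features; 9.88% in either direction, and 27.9% of features as abundant as the members). DESeq2 gave 0 in both directions. At an unadjusted p under 0.05, 2 were higher in edgeR, Snord78 (0.28 ± 0.106, SE) and Gm25789 (0.14 ± 0.0546), with adjusted p of 0.137 and 0.146. The short Snord80 interval differed by -0.32 ± 0.0808 (adjusted p = 0.027, edgeR) and kept its call in 6 of 16 fits without 1 library: it was lost without either CLP library, CMP 1, either MEP library, B 2, either T library, Myeloid 1 or Erythroid 1. Without MEP 1, 1 interval was higher. The libraries of these populations also differed from each other, with microRNA shares of 2.17% and 1.33% in MEP and 1.41% and 2.62% in Erythroid; without replicate 1 of GMP, MEP and Erythroid, 3 intervals were higher in MEP.

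Between the 2 lymphocyte fractions, 7 of 10 intervals were higher in B than in T and none was lower (18.7% and 9.48% of all features; 28.2% in either direction, and 67.2% of features as abundant as the members). Snord78 was higher by 1.26 ± 0.108 (SE) or 2.39-fold (adjusted p = 1.11e-05, edgeR) and Gm23212 by 0.92 ± 0.0743 or 1.89-fold (adjusted p = 9.73e-06). The long Snord80 interval (0.73), Mir5117 (0.64), Gm22489 (0.47), the short Snord80 interval (0.40) and Gm26224 (0.16) followed. Snord47 (0.15, adjusted p = 0.0582), Gm25789 (0.09) and Gm22357 (-0.09, adjusted p = 0.233) did not pass. At an unadjusted p under 0.05 in edgeR, Snord47 was also higher and none was lower. DESeq2 gave 5 higher and 0 lower, without Gm26224 (adjusted p = 0.457) and the short Snord80 interval (adjusted p = 0.0526). For the 7 called intervals both B libraries stood above both T libraries.

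With TMM factors from snoRNAs alone, which moved the median of all features by -0.20, Gm26224 was at -0.03 (adjusted p = 0.792, edgeR) and Gm22357 was lower in B (-0.28, adjusted p = 0.0125). Leaving out B 1 left 4 intervals higher, with Gm26224, Gm22489 and the short Snord80 interval no longer called. Gm26224 also lost its call without CLP 1, B 2, T 1 or T 2. The calls of Snord78, Gm23212, Mir5117 and the long Snord80 interval held in all 16 fits without 1 library.

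Whether the branches differed was tested directly, as the difference of 2 branch differences. The lymphoid change (CLP minus B and T) differed from the granulocyte change (GMP minus Myeloid) for 5 intervals (17.9% of all features) and from the erythroid change (MEP minus Erythroid) for 7 (21.4%); the granulocyte and erythroid changes differed for 3 (9.21%). Of the features as abundant as the members, 45.9%, 55.7% and 29.5% passed. Snord78 changed more in the lymphoid branch than in the granulocyte branch by 1.14 ± 0.139 (SE; adjusted p = 0.000278, edgeR) and than in the erythroid branch by 0.97 ± 0.139 (adjusted p = 0.000445). Mir5117 did likewise, by 0.48 ± 0.0733 (adjusted p = 0.00116) and 0.75 ± 0.0732 (adjusted p = 3.06e-05). Both Snord78 calls and the Mir5117 call against the erythroid branch held in all 16 fits without 1 library; the other Mir5117 call was lost without CLP 1 (adjusted p = 0.106). The 5 calls between the lymphoid and granulocyte branches dropped to 2 without CLP 1 and to 3 without CLP 2, CMP 1, B 2, T 1 or Myeloid 1. The 7 between the lymphoid and erythroid branches dropped to 3 without CLP 2, CMP 1, MEP 2, B 2, T 1 or Myeloid 1 and to 4 without CLP 1, B 1, T 2 or Erythroid 1. The 3 between the granulocyte and erythroid branches became 1 without CLP 1, CMP 1, T 1 or T 2, 0 without Myeloid 1 or Erythroid 1, and 5 without GMP 2.

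Snord80 was the member for which the choice of interval decided the result. The long interval has 3 more bases at the 5′ end and 1 more at the 3′ end, as the sequences above show. Progenitors were higher in the long interval (0.20) and lower in the short one (-0.51). With both summed to 1 feature, the difference was -0.01 ± 0.0342 (SE; adjusted p = 0.884, edgeR), and that of CLP against B and T was -0.03 ± 0.0593 (adjusted p = 0.686). The sum was higher in GMP than in Myeloid (0.28 ± 0.0685, adjusted p = 0.00969, edgeR) and higher in B than in T (0.60 ± 0.0687, adjusted p = 7.03e-05). For MEP against Erythroid it was -0.11 (adjusted p = 0.367).

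What differed was how Snord80 counts divided between the intervals. The short interval held 33.1% and 34.6% of them in the B libraries, 38.4% and 39.7% in T, and 30.4% and 33.0% in Myeloid. In CLP, CMP, GMP, MEP and Erythroid it held between 20.22% (MEP library 1) and 24.9% (CMP library 2). The 6 libraries of B, T and Myeloid thus lay above the other 10, and Erythroid lay with the progenitors. Counting error is small beside this gap, since the widest 95% Wilson interval of a share was 0.87 percentage points on read pairs. Among 8 other nested pairs of intervals with at least 50 counts in every library, the inner interval held 39.81% to 54.41% of the pair's counts. In 0 of 8 did the B, T and Myeloid libraries all lie above the rest. That grouping was read from the Snord80 shares themselves, so this is a description and no test. Most of the 8 pairs are copies of U3 RNA with nearly equal intervals (216 and 215 bases in Rnu3b1), against 81 and 77 bases in Snord80. How reads that fit both intervals were assigned is not given in the sources used here.

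**Figure D5:**
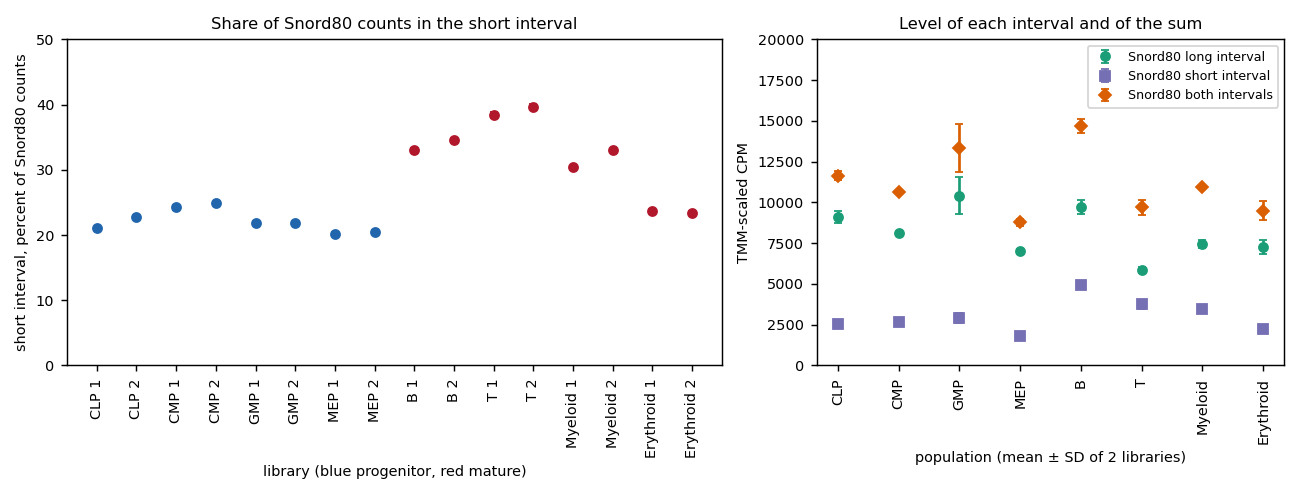
Left: percent of Snord80 counts in the short interval in each library, with 95% Wilson intervals (smaller than the points); B, T and Myeloid lie between 30.36% and 39.7%, the other libraries between 20.22% and 24.9%. Right: TMM-scaled CPM of the long interval, the short interval and their sum (mean ± SD of 2 libraries, axis from 0).

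Shares within Gas5, which need no scaling of libraries, gave the same signs as the levels for the members named most above. Snord78 held on average 0.115% of Gas5 counts in progenitors and 0.0801% in mature fractions, a log2 ratio of 0.52. Gm23212 held 3.97% and 3.09%, Gm22357 0.68% and 0.564%, and Mir5117 1.87% and 1.55%. The short Snord80 interval held 1.02% and 1.41%, and Gm26224 70.1% and 73.5%. These shares are not independent of each other, since a rise of Gm26224 lowers all others, and they are given without a test.

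Other snoRNAs were summarised in the same way for comparison. The median progenitor minus mature difference was 0.17 over the 10 intervals, 0.03 over the 293 other tested snoRNA intervals, 0.12 over the 44 in other non-coding hosts and -0.002 over the 217 in protein-coding hosts. Of those 44, 16 were higher and 11 lower, and of those 217, 56 were higher and 67 lower. For B minus T the medians were 0.44 over Gas5, 0.14 over non-coding hosts and 0.15 over protein-coding hosts. Members within Gas5 spanned -0.51 to 0.64 between the stages.

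The features outside Gas5 whose population means followed Snord78 most closely, among 310 with a mean of at least 10 CPM, were Gm24916, a snoRNA in Gnl3 (r = 0.99 over 8 populations), Gm24837, a snoRNA in Ubap2 (r = 0.971), and the snRNA Gm25360 (r = 0.93). For the short Snord80 interval they were Snord89 (r = 0.954), Snord87 in Snhg6 (r = 0.925) and Gm22589 in Ddx39b (r = 0.91). For the summed Gas5 level they were Gm23301 in Rpl17 (r = 0.818), Snord33 in Rpl13a (r = 0.765) and Gm22354 (r = 0.759). Inside Gas5 the closest pair after Snord78 and Mir5117 was the long Snord80 interval with Snord47 (r = 0.902).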

How the data were processed

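The authors deposited whole-number read counts per annotated small RNA interval, not normalized; per the submitters' processing notes, Trimmomatic 0.38, Bowtie2 2.3.4.1 and GRCm38 were used, while parameters, counting program, annotation and strand are not given in the sources used here. Between 89.0% and 93.2% of the values in a library were even. Intervals that a file does not list were counted as 0 there. Intervals were matched by position to GENCODE M21 (1884 of 1885), and host introns, boxes and sequences were read from it.

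Counts were filtered by filterByExpr (minimum count 10), which left 749 features, scaled by TMM and fitted with edgeR 4.0.16 in R 4.3.3, with 1 mean per population over 16 libraries (8 residual degrees of freedom). P-values were adjusted by Benjamini-Hochberg over all features, threshold 0.05. The SE is the log2 difference over the square root of F. The code was tested on simulated data. Alternatives were other filters and scalings, DESeq2 1.42.0, read pairs, a replicate block and left-out libraries or populations. Copies were sought with blastn 2.17.0. Wilson 95% intervals used read pairs (counts divided by 2) and cover counting error only. No 2 libraries agreed within sampling noise (chi-square over degrees of freedom of 3.45 to 130). Every member is named; likeness is Pearson's r over 8 population means. Members, lists and tests were chosen with earlier results of these data known.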

Additional observations from a re-analysis of the deposited data

Results flagged for a closer look

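The change from progenitor to mature cells differed between branches for 15 combinations of interval and branch pair, each by an edgeR test of the difference itself (adjusted p under 0.05). Values are the first branch's log2 difference (progenitor minus mature) minus the second's.

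Between the lymphoid and granulocyte branches the difference was 1.14 for Snord78, 0.48 for Mir5117, 0.34 for Gm23212, -0.52 for the short Snord80 interval and -0.56 for Gm26224. Between the lymphoid and erythroid branches it was 0.97 for Snord78, 0.75 for Mir5117, 0.66 for Gm22357, 0.33 for the long Snord80 interval, -0.43 for Gm26224, and -0.44 for both Gm22489 and the short Snord80 interval. Between the granulocyte and erythroid branches it was 0.54 for the long Snord80 interval, 0.45 for Gm22357 and 0.28 for Mir5117.

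With both Snord80 intervals summed, these differences were -0.32 (adjusted p = 0.0329), 0.08 (adjusted p = 0.604) and 0.40 (adjusted p = 0.026) in the same order of branch pairs. Fits that left out 1 library kept 5 of the 15 calls in all 16 fits: Snord78 and Gm26224 between the lymphoid and granulocyte branches, and Snord78, Mir5117 and Gm22357 between the lymphoid and erythroid branches. Between the lymphoid and granulocyte branches, Mir5117 was called in 15, the short Snord80 interval in 9 and Gm23212 in 4 of 16. Between the lymphoid and erythroid branches, Gm26224 was called in 10, the long Snord80 interval in 6, and Gm22489 and the short Snord80 interval in 5 of 16. Between the granulocyte and erythroid branches, Gm22357 was called in 14, the long Snord80 interval in 10 and Mir5117 in 6 of 16. Library totals in place of TMM moved the median of all features by 0.54, 0.39 and -0.16 in these 3 comparisons. The left-out fits all used TMM, and the Gm26224 difference between the lymphoid and granulocyte branches depended on it. As a percent of all counts Gm26224 was at 18.51% in CLP, 18.56% in B and 15.84% in T. It was at 17.12% in GMP and 15.79% in Myeloid, so on that scale its 2 branch changes had the same sign.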

How the results depend on the processing

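All tests had 2 libraries per population and 8 residual degrees of freedom. No member fell below 762 counts in a library, and shares within Gas5 had 95% Wilson intervals of at most 0.173 percentage points. Counts below are of members called, mostly given without the share over all features under the same setting. Gm26224 changed sign under library totals between the stages (0.12) and for CLP against B and T (0.11), and under TMM over snoRNAs alone for B against T (-0.031); Gm23212 did so between the stages without T and CMP (-0.083). These exclusions of populations, all alternatives for the branch differences and the summed Snord80 in counts of members were added after the data were seen.

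Between the stages, populations as units gave 0 higher and 0 lower, and library totals 1 lower. For CLP against B and T, DESeq2 size factors and DESeq2 each gave 3 higher, and library totals 1 lower. For GMP against Myeloid, DESeq2 size factors, TMM over snoRNAs alone and DESeq2 gave 3 higher; no filter, DESeq2 size factors and DESeq2 gave 0 lower, and the replicate block and the summed Snord80 1 lower. For MEP against Erythroid, the 10 CPM filter gave 1 higher, and library totals and the fit without replicate 1 of GMP, MEP and Erythroid 3; no filter, DESeq2 size factors, DESeq2, read pairs and the summed Snord80 gave 0 lower. For B against T, the 10 CPM filter and TMM over snoRNAs alone gave 1 lower. Between the lymphoid and granulocyte branches, no filter and DESeq2 size factors gave 3 and library totals 8; between lymphoid and erythroid, no filter, DESeq2 size factors and DESeq2 gave 3; between granulocyte and erythroid, no filter gave 1 and DESeq2 size factors 0. The cause was not tested.

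Leaving out 1 library at a time gave 4 to 7 higher and 2 to 3 lower between the stages, 3 to 7 and 2 to 3 for CLP against B and T, 3 to 6 and 0 to 3 for GMP against Myeloid, 0 to 1 and 0 to 1 for MEP against Erythroid, and 4 to 9 and 0 to 0 for B against T. It gave 2 to 6, 3 to 7 and 0 to 5 for the 3 branch differences in the order above, and 9 to 10 for any difference among populations. Library totals split all calls between the stages into 309 higher and 107 lower, against 200 and 173 under TMM.

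The labels do not say whether replicate numbers pair the libraries. Of 28 pairs of populations, 18 had deviations between replicates correlated above 0.1, with r from -0.909 to 0.823. Deviations were thus partly shared between populations, in either direction. The fits took the 16 libraries as independent, and whether some share a batch was not tested. The replicate block kept 48 of 50 member results. It lost GMP against Myeloid for the short Snord80 interval (-0.24, adjusted p = 0.0538, edgeR) and B against T for Gm26224 (0.16, adjusted p = 0.0561, edgeR). The block fits 1 shift per feature for replicate number, shared by all populations. It cannot take up deviations that run in opposite directions, so it does not decide whether libraries share a batch.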
